A study of Arabidopsis thaliana with 4 samples.

Results

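The abscisic acid pathway from its receptors to its transcription factors is described here at 33 of the 27444 protein-coding genes on the nuclear chromosomes of Arabidopsis thaliana. The genes were chosen by locus number: 14 receptor genes (PYR1 and PYL1 to PYL13), 9 clade A protein phosphatase 2C (PP2C) genes, 3 SnRK2 kinase genes, 4 ABF transcription factor genes, and ABI3, ABI4 and ABI5. Chromatin bound by phytochrome A (phyA), the photoreceptor for far-red light, was profiled by chromatin immunoprecipitation and sequencing (ChIP-seq). Dark-grown seedlings aged 4 days were given 3 h of far-red light. All were phyA201 mutants that carried phyA-GFP, driven by the PHYA promoter. The 3 ChIP samples, taken with an anti-GFP antibody, were biologically distinct per the labels, and the 1 input sample of the same seedlings was not analysed here. All samples share 1 genotype and 1 light treatment, so the comparisons below run across genes and pathway steps and not across conditions.

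Abscisic acid is the plant hormone of seed dormancy, drought and stomatal closure, and it restrains germination and early seedling growth, steps that light promotes. A receptor that has bound the hormone also binds a clade A PP2C and blocks it. Without hormone these phosphatases keep the SnRK2 kinases inactive, and once released the kinases phosphorylate the ABF and ABI5 transcription factors, which bind promoters of responsive genes.

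Each gene was given a window of its body plus 1000 bp outside either end. A gene counted as having a peak in a list when a peak of that ChIP sample overlapped the window by at least 1 bp. The value of a gene in a list was the authors' fold enrichment of its highest peak, a linear ratio read as ChIP signal over local background. Folds of different lists may differ in scale, so for many genes the percentile of that peak among all peaks of its own list is given beside it. The lists of replicates 1, 2 and 3 held 7084, 7534 and 6037 peaks with 11110782, 7702516 and 4951883 reads inside peaks and median fold enrichments of 4.38, 3.85 and 3.58. The total number of reads per library is not known, so depth is known only as reads inside peaks. Genes are not replicates of a pathway step, so the shares below carry no test.

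Of the 33 genes, 14 (42.4%) had a peak in every list, against 18.8% of all protein-coding genes. They were the receptor genes PYL1, PYL4, PYL5, PYL8 and PYL11, the phosphatase genes ABI1, ABI2, HAB1 and PP2CA, the kinase genes SNRK2.3 and SNRK2.6, and the transcription factor genes ABF2, ABF3 and ABI5. A further 8 genes had peaks in 2 lists and 4 in 1 list. No peak of any list reached the windows of the remaining 7, PYL10, HAI3, SNRK2.2, ABF1, ABF4, ABI3 and ABI4. In the single lists 22, 22 and 18 of the 33 genes had a peak in replicates 1, 2 and 3 (66.7, 66.7 and 54.5%), against 35.3, 35.7 and 28.1% of all protein-coding genes. A longer gene has a wider window, and the median gene length was 2083 bp for the 33 genes, against 2078 bp for all protein-coding genes. Among genes of 2000 to 3000 bp, 8 of 13 pathway genes had a peak in every list, against 22.1% of all genes of that length. The other classes were closer to their background: 1 of 5 up to 1000 bp, against 10.9%, 3 of 10 from 1000 to 2000 bp, against 17.0%, and 2 of 5 above 3000 bp, against 22.4%.

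**Figure D1:**
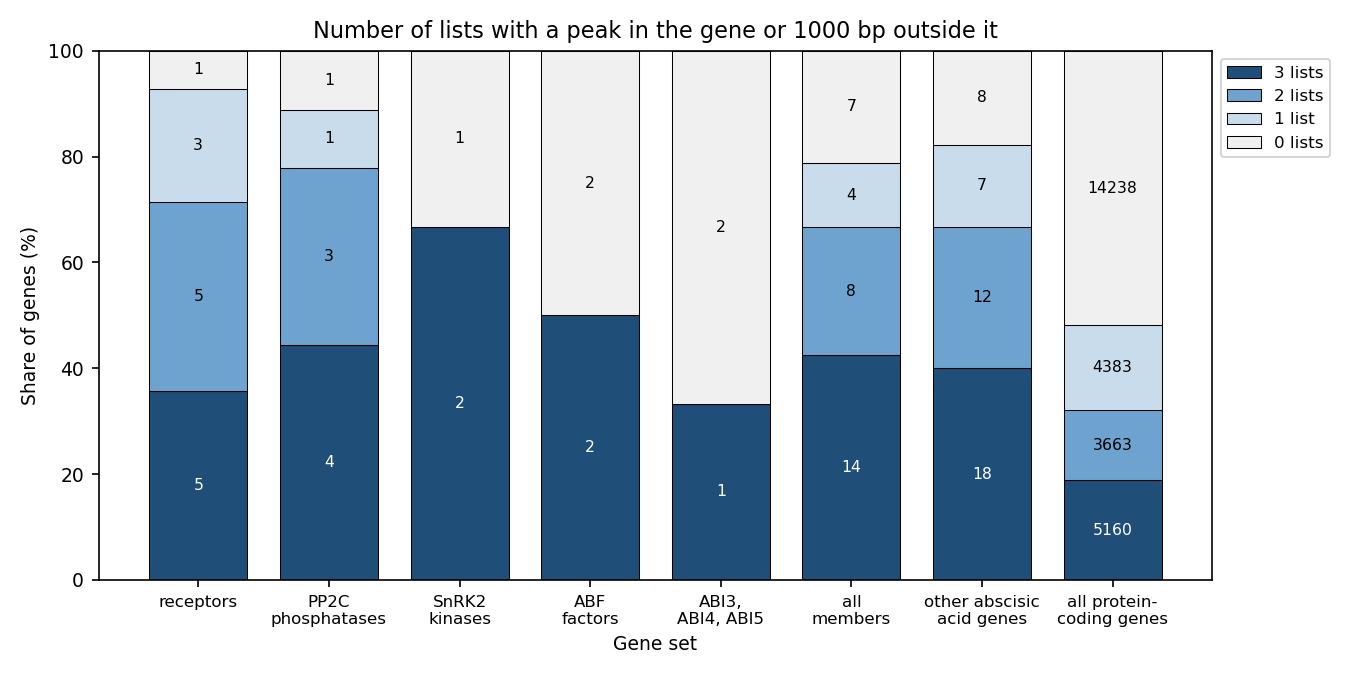
Share of genes (vertical axis, %) with a peak in 3, 2, 1 or 0 lists, for each pathway step from receptors to transcription factors, for all 33 genes, for 45 other abscisic acid genes and for all 27444 protein-coding genes. Numbers in the bars are genes. Peaks in all 3 lists were found at 14 of the 33 genes, and the kinase and transcription factor bars hold no gene with peaks in only 1 or 2 lists.

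The steps hold few genes each, and their counts are given side by side. They also differ in gene length, and so in window width. The median length was 1336.5 bp for receptor, 2462 bp for phosphatase, 2731 bp for kinase, 2876 bp for ABF and 2978 bp for ABI genes. Whether length bears on the counts of the steps was not tested. Of the receptor genes 5 of 14 (35.7%) had a peak in every list and 8 had one in 1 or 2 lists. Of the phosphatase genes 4 of 9 (44.4%) had a peak in every list and 4 in 1 or 2. The 10 genes of the last steps were either called in all lists or in none: 2 of 3 kinase genes, 2 of 4 ABF genes and 1 of the 3 ABI genes were called in every list. Over all protein-coding genes, 4383 had a peak in 1 list and 3663 in 2 lists, of 27444. By summits in the window in place of peaks, ABF2 was called in 1 list only. All members of the receptor step but PYL10 had at least 1 peak (13 of 14), whereas 4 of the 7 transcription factor genes had none. For a peak in at least 1 list the share over all protein-coding genes was 48.1%. When replicate 3 was left out and a peak of both other lists was required, 8 receptor genes were counted in place of 5, and the share over all protein-coding genes was 26.8% in place of 18.8%.

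**Figure D2:**
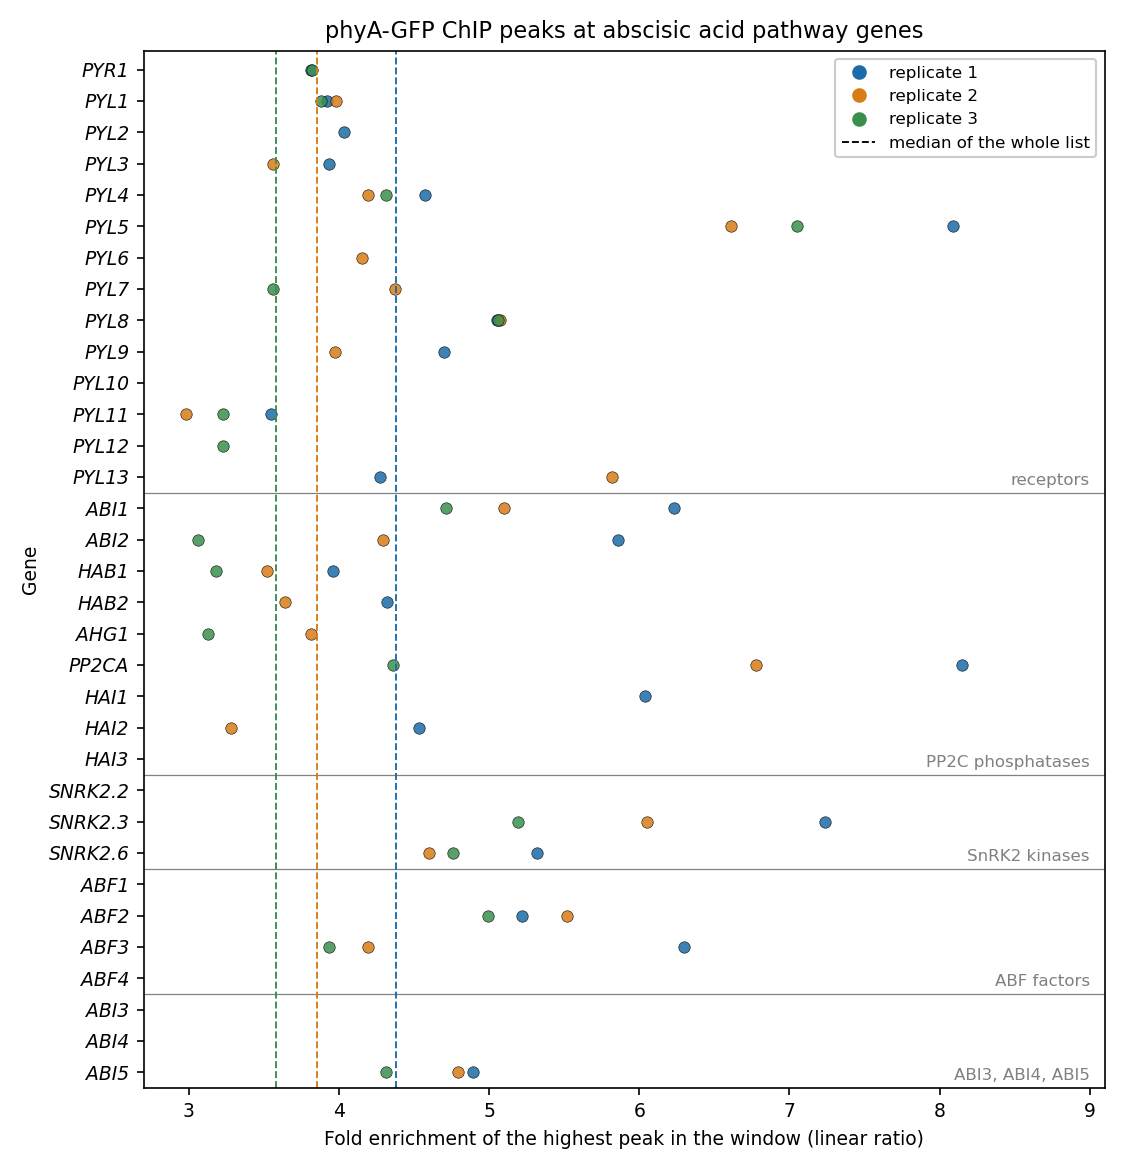
Fold enrichment (horizontal axis, linear ratio) of the highest peak in the window of each of the 33 genes (vertical axis), with 1 point for each replicate list that had a peak and dashed lines at the medians of the whole lists. PYL5, PP2CA and SNRK2.3 reach the highest values, and 7 genes have no point. The point of PYL12 is the same peak as that of PYL11 in replicate 3.

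PYL5 (AT5G05440), a receptor gene of subfamily II, had the highest mean fold enrichment of the 14 genes. The values were 8.09, 6.61 and 7.05 in replicates 1, 2 and 3 (mean 7.25 ± 0.76, SD, n = 3). Those peaks stood at percentiles 99.5, 98.9 and 99.9 of their lists, so that each list placed the gene near its top. By its mean percentile PYL5 ranked 19 among the 5160 protein-coding genes with a peak in every list. The summits, the positions of highest signal, lay at 1608475, 1608577 and 1608384 on chromosome 5 (TAIR10), 411 to 604 bp outside the gene. No other protein-coding gene overlapped the window of PYL5, and replicate 3 had a second peak of 3.23-fold, 300 bp from its other end.

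Among the other receptor genes with a peak in every list, PYL8 (AT5G53160) had the next highest values. Subfamily I, to which PYL8 belongs, holds receptors that act as monomers. The fold enrichment of PYL8 was 5.05, 5.07 and 5.06 (mean 5.06 ± 0.010, SD, n = 3), at percentiles 73.9, 88.5 and 95.4. The same fold therefore ranked higher in replicate 3 than in replicate 1. In replicates 2 and 3 the summits lay 38 bp apart inside the gene, whereas replicate 1 had 2 peaks. That of 5.05-fold had its summit 67 bp outside one end, and that of 5.02-fold 111 bp outside the other. Only the 5.02-fold peak overlapped those of replicates 2 and 3, so the mean and SD join peaks of different places. The summit of the 5.02-fold peak lay inside the neighbouring FTSH11, a protease gene.

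PYL4 (AT2G38310), of subfamily II, had 4.57, 4.19 and 4.31-fold enrichment (mean 4.36 ± 0.19, SD, n = 3), at percentiles 57.8, 65.5 and 83.2. The gene lay almost wholly under its peaks, which covered 100, 100 and 89.6% of it. A pair of positions recurred there. Summits of replicates 1 and 3 lay inside the gene at 16050068 and 16050067 on chromosome 2, 1 bp apart. The replicate 3 peak at that position was the weaker of its list there, with 3.01-fold at percentile 5.98. Summits of replicates 2 and 3 lay 1137 and 1134 bp outside the gene at 16052493 and 16052490, 3 bp apart. The mean and SD therefore join peaks with summits at different positions. PYL1, of subfamily III, whose members form dimers, had 3.92, 3.98 and 3.88-fold (mean 3.93 ± 0.050, SD, n = 3), at percentiles 31.0, 56.9 and 66.7. Its summits in replicates 2 and 3 were 1140 and 1111 bp outside the gene, beyond the window that their peaks reached into, and that of replicate 1 was 282 bp outside.

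PYL11 had the lowest mean of the genes called in every list, with 3.55, 2.98 and 3.23-fold (mean 3.25 ± 0.29, SD, n = 3), although ABI2 and HAB1 were lower in replicate 3. The 2.98 of replicate 2 stood at percentile 1.83 of that list, close to the lowest fold of any list, 2.95. The summits of replicates 1 and 2 lay outside one end of the gene, and that of replicate 3 lay 416 bp outside the other end, between PYL11 and its neighbour PYL12. That peak was also the only one in the window of PYL12, 859 bp from the gene. PYL11 and PYL12 are related neighbours, and whether reads were split between them was not tested.

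Of the receptor genes with peaks in 2 lists, PYR1, PYL3, PYL7, PYL9 and PYL13, the highest value belonged to PYL13. It had 5.82-fold in replicate 2, at percentile 96.3, and 4.27-fold in replicate 1, at percentile 46.0, with summits 930 and 855 bp outside the gene and no peak in replicate 3. PYR1, the receptor first found through the synthetic agonist pyrabactin, had 3.81-fold in replicate 1 and 3.82-fold in replicate 3, with summits 44 bp apart inside the gene. The other genes of this class lay between 3.56 and 4.70-fold by their highest peaks. The 4.70 came from a replicate 1 peak 887 bp from PYL9, with its summit 1872 bp away, beyond the window. The replicate 1 peak that overlapped PYL9 had 3.21-fold. PYL2, PYL6 and PYL12 had a peak in 1 list each, of 4.03-fold in replicate 1, 4.15-fold in replicate 2 and 3.23-fold in replicate 3. By subfamily, peaks in every list were at 1 of 4 genes in I, 3 of 6 in II and 1 of 4 in III. The share over all protein-coding genes was 18.8%, and a difference between the subfamilies was not tested. The 3 genes of subfamily II include PYL11, with 2.98-fold at percentile 1.83 in replicate 2.

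PP2CA (AT3G11410), a phosphatase gene that acts in germination and in guard cells, carried peaks at both of its ends in every list. Its highest fold enrichment was 8.15, 6.78 and 4.36 (mean 6.43 ± 1.92, SD, n = 3), at percentiles 99.5, 99.2 and 84.4. Replicate 3 was the lowest and replicate 1 the highest, and the gene ranked 119 of 5160. At one end the summits of replicates 1, 2 and 3 lay 828, 919 and 994 bp outside the gene, with 8.15, 4.26 and 4.36-fold. At the other end they lay 114, 122 and 574 bp outside, with 6.40, 6.78 and 4.21-fold. The mean therefore joins peaks of different ends, since replicate 2 was highest at the second end and the other lists at the first.

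ABI1 (AT4G26080), a phosphatase gene named for insensitivity to the hormone, had 6.23, 5.10 and 4.71-fold (mean 5.35 ± 0.79, SD, n = 3), at percentiles 93.1, 89.2 and 91.4. Although its peaks overlapped the window in every list, all 3 summits lay outside it. They were 1174, 1109 and 2044 bp from ABI1 and nearer to RPS2, a disease resistance gene, in which the summit of replicate 3 lay. ABI2, its closest relative, had 5.86, 4.29 and 3.06-fold (mean 4.40 ± 1.40, SD, n = 3), at percentiles 89.3, 69.1 and 10.5. Replicate 1 placed ABI2 high in its list and replicate 3 low. Its summits in replicates 2 and 3 were 17 bp apart, 1794 and 1811 bp from ABI2 but only 82 and 65 bp from AT5G57040.

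HAB1 had 3.96, 3.52 and 3.18-fold (mean 3.55 ± 0.39, SD, n = 3), below the median of each whole list, at percentiles 32.7, 32.5 and 20.6. Its summits in replicates 1 and 3 lay 32 bp apart inside the gene, near one end. The 3.52-fold peak of replicate 2 had its summit 598 bp outside that end. A weaker peak of replicate 2 had its summit 909 bp outside the other end. Neither overlapped the peaks of replicates 1 and 3, so the mean and SD join peaks of different places. Of the 14 genes, only HAB1 was lost when 1 merged region of all lists was required. The related HAB2 had 4.32 and 3.64-fold in replicates 1 and 2, with summits 7 bp apart and 251 and 258 bp outside the gene, and the nearest peak of replicate 3 was 1139 bp away. Of ABI1, ABI2, HAB1 and HAB2, 3 of 4 had a peak in every list. Of AHG1, PP2CA, HAI1, HAI2 and HAI3, 1 of 5 did, PP2CA, a share of 20.0% beside 18.8% of all protein-coding genes.

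HAI1, of the highly hormone-induced phosphatases, shows how the window sets the count. It had peaks in replicate 1 only, of 3.82-fold inside the gene and 6.04-fold beside it, while the nearest peaks of replicates 2 and 3 lay 1015 and 1032 bp from the gene, just outside the limit of 1000 bp. The summits of the 6.04-fold peak and of those of replicates 2 and 3 lay within 54 bp of each other, between 23898682 and 23898736 on chromosome 5, 1743 to 1797 bp from HAI1. Their fold enrichments ranged from 4.81 to 6.04. Among peaks just inside the limit were those of ABF2 in replicates 2 and 3, 795 and 892 bp from the gene. AHG1, which acts in seeds, had 3.81 and 3.13-fold in replicates 2 and 3, with summits 12 bp apart, 651 and 663 bp outside the gene. HAI2 had 4.53 and 3.28-fold in replicates 1 and 2.

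The called kinase genes had the smallest spread of highest summits among the 14 genes, 40 bp at SNRK2.6 and 80 bp at SNRK2.3. SNRK2.3 (AT5G66880), a kinase gene of germination and seedling growth, had 7.24, 6.05 and 5.19-fold (mean 6.16 ± 1.03, SD, n = 3), at percentiles 98.2, 97.4 and 96.2. Its summits lay 303, 264 and 344 bp outside the gene, within 80 bp of each other, and its rank was 57 of 5160. SNRK2.6 (AT4G33950), the kinase gene of stomatal closure, which the gene table lists as OST1, had 5.32, 4.60 and 4.76-fold (mean 4.89 ± 0.38, SD, n = 3), at percentiles 80.3, 79.0 and 92.1. Its summits lay within 40 bp of each other inside the gene, between 16271845 and 16271885 on chromosome 4. A second peak outside the same end recurred in replicates 1 and 2, with summits 57 bp apart and 5.17 and 4.24-fold. SNRK2.2, the closest relative of SNRK2.3, had no peak in any list, and the nearest ones were 7203, 7527 and 7454 bp away.

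Of the ABF genes, whose products are basic leucine zipper (bZIP) factors that the kinases activate, ABF2 and ABF3 had peaks in every list. ABF2 (AT1G45249) had 5.22, 5.52 and 4.99-fold (mean 5.24 ± 0.27, SD, n = 3), at percentiles 78.3, 94.1 and 94.8. Its summits of highest fold in replicates 2 and 3 lay 1152 and 1289 bp from the gene and 360 and 223 bp from AT1G45230. In replicate 1 a peak of 5.08-fold had its summit at the same place, 1360 bp from ABF2, and the 5.22-fold peak lay at the other end of the gene. The mean and SD therefore join peaks of different ends. ABF3 had 6.30, 4.19 and 3.93-fold (mean 4.81 ± 1.30, SD, n = 3), at percentiles 93.6, 65.5 and 69.1, with replicate 1 well above the others. All peaks of ABF3 crossed the same end of the gene, with summits inside it in replicate 1 and 705 and 131 bp outside it in replicates 2 and 3. The nearest peaks to ABF1 were 2479, 2339 and 2441 bp away, and those to ABF4 12726, 13108 and 13526 bp.

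ABI5 (AT2G36270), a bZIP factor gene that holds back growth of the germinated embryo, had 4.89, 4.79 and 4.31-fold (mean 4.66 ± 0.31, SD, n = 3), at percentiles 68.8, 83.1 and 83.2. Its summits lay 43, 6 and 851 bp outside one end, and the last was 11 bp from the neighbouring AT2G36290. The peak of replicate 3, 540 bp from the gene, did not overlap that of replicate 2, so the mean and SD join peaks of different places. Counted with the ABF genes, 3 of the 5 bZIP genes of the pathway (60.0%) had a peak in every list, against 18.8% of all protein-coding genes. ABI3 and ABI4 encode factors of other families, a B3 and an AP2 protein, and had no peak in any window. The nearest peaks to ABI3 were 3124, 3056 and 3028 bp from the gene in replicates 1, 2 and 3, and those to ABI4 14622, 2481 and 7570 bp.

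**Figure D3:**
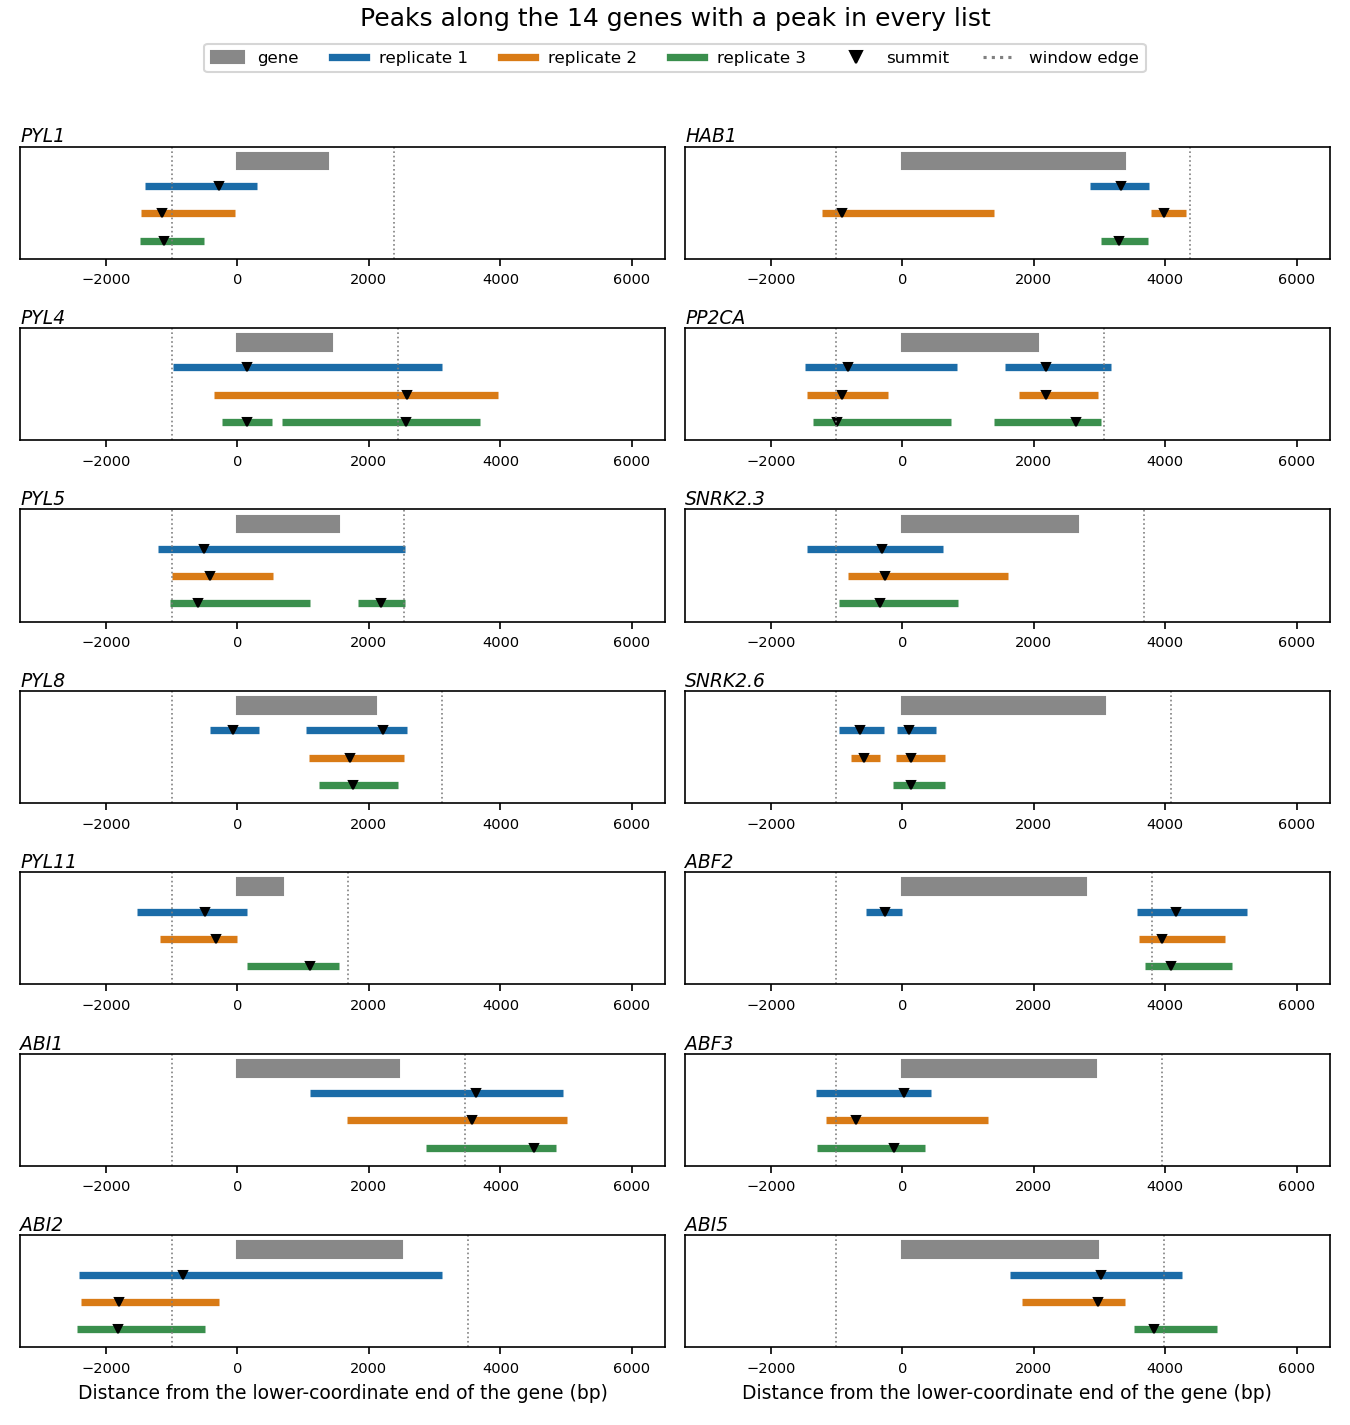
Peaks along the 14 genes with a peak in every list, drawn by distance in bp from the lower-coordinate end of the gene, with the gene as a grey box, peaks of the 3 replicates as coloured bars, summits as triangles and window edges as dotted lines. Strand is not drawn because the gene table gives none. Summits of all replicates stand together at PYL5, SNRK2.3 and SNRK2.6 and at one end of PP2CA, and fall outside the window at ABI1.

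The rank of the called genes in the lists varied, from a mean percentile of 14.1 at PYL11 to 99.4 at PYL5. Over the 62 pairs of a pathway gene and a list with a peak, 17 (27.4%) of the highest peaks were above the 90th percentile of their list, against 11.3% of the 27189 such pairs of all protein-coding genes. The shares were 27.3, 22.7 and 33.3% in replicates 1, 2 and 3, against 11.4, 11.5 and 11.0%. With only the peaks at or above the median fold of each list, 10 of the 33 genes (30.3%) kept a peak in every list, against 7.09% of all protein-coding genes. PYL1, PYL11, ABI2 and HAB1 were the genes no longer counted. For the 14 genes the median of the mean fold enrichment was 4.85 and that of the mean percentile 81.1, against 4.34 and 62.6 for all 5160 genes.

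The positions of the summits were counted in the same way. Of the 62 highest peaks, 14 (22.6%) had the summit inside the gene, 34 (54.8%) in the flanks and 14 (22.6%) beyond the window, against 22.3, 57.0 and 20.7% of the pairs of all protein-coding genes. In replicate 3 alone the share beyond the window was 33.3%, against 19.4%. In 17 of the 62 (27.4%) the summit was nearer to another protein-coding gene, against 42.2%. When a summit of every list was required in the window, 9 of the 33 genes were counted (27.3%), against 14.3% of all protein-coding genes. PYL1, PYL4, ABI1, ABI2 and ABF2 were the 5 lost in that way.

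Agreement on an exact position was less common than agreement on a gene. Summits of any list were chained into a site where neighbouring summits lay within 200 bp, a limit chosen after the data were seen. A site with a summit of every list lay in the window of 4 of the 33 genes (12.1%), PYL5, PP2CA, SNRK2.3 and SNRK2.6, against 10.4% of all protein-coding genes. By this measure the pathway genes were close to the background. With 2 lists required, 17 of the 33 genes had a site (51.5%), against 23.0% of all protein-coding genes. Leaving out replicate 1, 2 or 3 and requiring both others gave 7, 8 and 10 of the 33 genes, against 13.7, 12.9 and 16.9% of all protein-coding genes. HAI1 and ABF2 had sites of every list beyond the window.

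Outside the chain of signalling, 45 other abscisic acid genes were counted by the same rule, and 18 (40.0%) had a peak in every list, against 18.8% of all protein-coding genes. Without replicate 3 the count was 29 of 45, against 26.8% of all protein-coding genes. All genes of hormone breakdown, the CYP707A hydroxylase genes, were among them, 4 of 4. CYP707A3 had the highest mean of these, with 5.11, 4.69 and 5.18-fold (mean 4.99 ± 0.27, SD, n = 3), followed by CYP707A1 with 4.53, 3.59 and 5.88 and CYP707A4 with 5.16, 3.11 and 3.12. Those of CYP707A4 stood at percentiles 76.8, 8.65 and 15.5, with summits beyond the window in replicates 1 and 3. With only peaks at or above the median fold of each list, 1 of the 4 kept a peak in every list. At CYP707A3, CYP707A1 and CYP707A4 the highest summits of the lists spread over 1759, 1952 and 906 bp. At CYP707A1 the spread joins 2 places, because replicate 2 was highest at the second. Summits of replicates 1, 2 and 3 lay there at 10521312, 10521254 and 10521286 on chromosome 4, and again at 10523441, 10523238 and 10523483.

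The genes of the AFP family, whose products bind ABI5 and dampen its action, had peaks in every list at 3 of 4. For this and the following lists the share over all protein-coding genes was 18.8%. AFP3 had 5.63, 6.92 and 5.47-fold (mean 6.01 ± 0.80, SD, n = 3) with summits within 108 bp, AFP1 had 5.42, 5.30 and 3.51, and TMAC2 had 4.96, 4.63 and 4.02. The highest summits of TMAC2 spread over 2933 bp, and that of replicate 1 lay inside the neighbouring RPK2. Of the genes of synthesis 3 of 10 had peaks in every list, led by ABA4, of neoxanthin formation, with 6.40, 4.99 and 5.15-fold (mean 5.51 ± 0.77, SD, n = 3). Those peaks covered only 17.1, 0.36 and 0% of ABA4. Their summits lay 577, 393 and 498 bp outside it and 478, 662 and 557 bp from the neighbouring RBCS1A. NCED3, of the committed cleavage step, had 3.95, 4.30 and 2.99, at percentiles 32.2, 69.5 and 4.14. ABA2, of the step to abscisic aldehyde, had 4.30, 3.34 and 3.17, at percentiles 47.1, 22.0 and 19.9. The ABA2 summits of replicates 1 and 2 lay inside the neighbouring AT1G52330, and that of replicate 3 lay 77 bp outside the other end of ABA2. Of the SnRK2 kinases outside the core, 3 of 7 were called, SNRK2.5, SNRK2.7 and SNRK2.10, and of the transporters 1 of 3, ABCG25, an exporter of the hormone. Summits of SNRK2.5 in replicates 1 and 2 lay beyond the window, 1387 and 1278 bp from the gene and 300 and 409 bp from PDF2.5. Those of AFP1 in replicates 1 and 3 also lay beyond it, 1116 and 1339 bp from the gene. With a summit of every list required in the window, 2 of 4 AFP genes and 2 of these 7 kinase genes were counted, against 14.3% of all protein-coding genes.

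Of the genes that respond to the hormone, 4 of 13 (30.8%) had a peak in every list, against 18.8% of all protein-coding genes. COR47 had 4.42, 4.32 and 4.06-fold, RD29B 3.58, 4.79 and 3.74, and ERD10 4.00, 4.32 and 3.44. The 4 genes, RD29A being the fourth, are 2 neighbouring pairs that share peaks in every list, COR47 with ERD10 and RD29A with RD29B, so they are not 4 separate places. In replicates 2 and 3 the RD29B values came from peaks at its other end, not shared with RD29A. The shared peaks of those replicates had 3.90 and 3.08-fold. The COR47 values of replicates 1 and 3 likewise came from peaks not shared with ERD10. Of the other bZIP genes of the same group, AREB3, EEL, DPBF2 and GBF4, none of 4 had a peak in every list. AREB3 had peaks in replicates 1 and 3, EEL in replicates 1 and 2, GBF4 in replicate 3 and DPBF2 in no list.

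**Figure D4:**
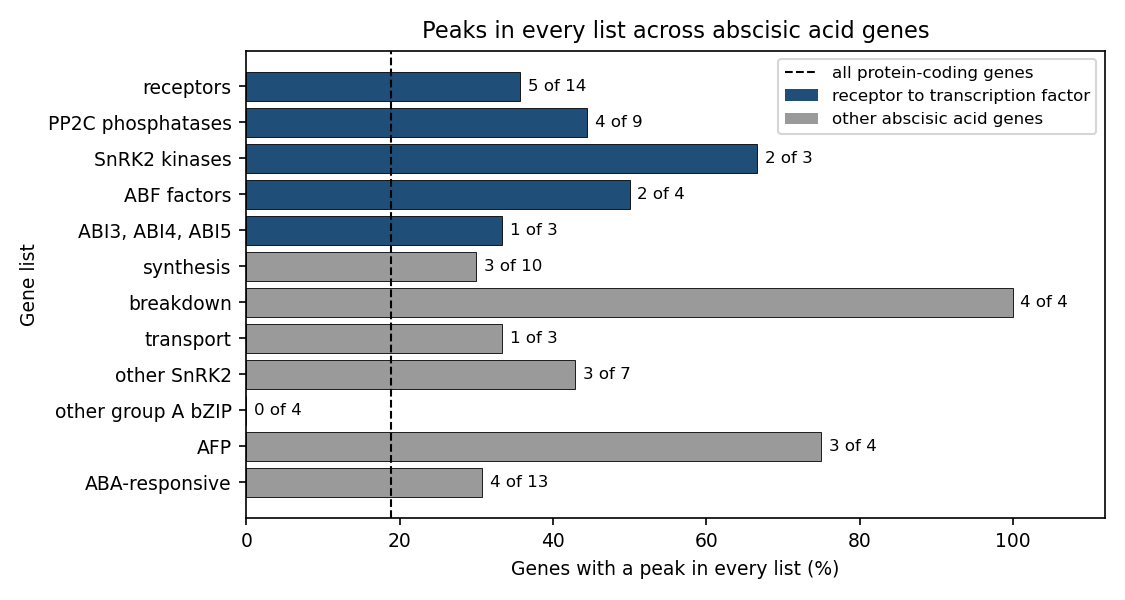
Share of genes with a peak in every list (horizontal axis, %) for the 5 pathway steps (dark bars) and 7 lists of other abscisic acid genes (grey bars), with the count beside each bar. The dashed line is the share of all protein-coding genes, 18.8%. All lists except the other group A bZIP genes lie to the right of it, and the lists hold 3 to 14 genes each.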

How the data were processed

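Each ChIP sample has its own deposited peak list; which caller made it, and with which settings, is not given in the sources used here. Bowtie aligned the reads to build TAIR10, per the submitters' processing notes. The lists carry no header, so the columns were identified from their order and values. Among the deposited columns are the read count of a peak, which is whole and not normalized, and a score taken to be a transformed p-value. The other columns used come from the authors: a linear fold enrichment ratio, and what appears to be a false discovery rate, at most 4.99 percent. An SD over lists also holds any difference in scale between them.

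Genes were placed with an NCBI table (TAIR10.1), taken to share nuclear coordinates with TAIR10. As a check, 35.1% of replicate 1 summits lay inside protein-coding genes, against 63.7% after a shift of 2000 bp. All 33 genes and the 45 other abscisic acid genes were matched by locus. Strand and promoter sequence were not used here, so flanks are not called promoters, and the planned motif counts were not made.

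The members and lists were chosen with earlier results of these data known. Genes with a peak in every list were given with all values; of those with peaks in 1 or 2 lists, the highest of each step by percentile, and others chosen after their values were seen; of the other lists, up to 3 called genes by mean percentile. Overlaps were computed in Python 3.11.15 with pandas 2.3.3 and tested on simulated lists. Other windows, overlap rules, peak strengths and left-out replicates were tried.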

Additional observations from a re-analysis of the deposited data

How the results depend on the processing

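The count of 14 of 33 genes with a peak in every list was within 1.5 times of itself with flanks of 500 or 2000 bp, an overlap of 200 bp, only peaks at or above each list's median fold, 1 merged region of all lists, and without any 1 replicate (10 to 19). It was 8 with the gene body only and 9 with the summit required in the window, against 13.4 and 14.3% of all protein-coding genes. Flanks of 500 and 2000 bp gave 11 and 17, against 16.2 and 24.3%. An overlap of 200 bp gave 13, against 17.7%, and 1 merged region gave 15, against 20.3%. Without replicate 1, 2 or 3 the count was 16, 15 and 19, against 21.6, 21.4 and 26.8%. Receptors fell to 3 of 14 with the gene body only, with the summit rule and with only peaks at or above the median fold, against 5, and ranged from 6 to 8 when a replicate was left out and only both others were required. Phosphatases came to 2 of 9, against 4, under those same 3 settings. ABF genes came to 1 of 4, against 2, with 500 bp flanks, the gene body only, the summit rule and an overlap of 200 bp. The ABI count went to 0 of 3, against 1, with 500 bp flanks and the gene body only. The kinase count, 2 of 3, was the same under all 10 settings. Only peaks at or above the median fold left 7.09% of all protein-coding genes and 8 of the 45 other abscisic acid genes. With peaks of any fold, 18 of those 45 were counted in all lists, and 18 to 29 when a replicate was left out. The count of 4 genes with a site of every list was 3 and 5 with links of 100 and 500 bp, added after seeing the data, and ranged from 7 to 10 when a replicate was left out. Leaving out a replicate lowers the number of lists required and so raises counts. The median mean fold enrichment stayed between 4.62 and 5.07, and of the single genes' values 1 moved by more than its SD, that of PYL4, to 3.92 with the peak nearest to the gene. Motif counts were not run. No paired analysis was possible because the replicates belong to a single group. Sequencing depth limits which weak peaks each list holds, and it is unknown here.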

Other observations

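Peaks at some of the 33 genes were broad. The peak of ABI2 in replicate 1 was 5524 bp long and covered the whole gene, while those of replicates 2 and 3 were 2091 and 1942 bp long and stopped short of it. At PYL4 the peaks of replicates 1 and 2 were 4081 and 4311 bp long and took in the whole gene. PYL5 was covered by 100, 34.9 and 71.9% in replicates 1, 2 and 3. SNRK2.6 had short peaks instead, of 602, 737 and 788 bp at the site shared by all lists, each covering 16.8 to 21.1% of the gene from one end.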
